A study of Mus musculus with 22 samples.

Results

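The genes described here code for the pocket proteins and for the MuvB core with its partners: Rb1, Rbl1, Rbl2, Lin9, Lin37, Lin52, Lin54, Rbbp4, Mybl2 and Foxm1. They were chosen by name, with earlier results of these data known, and all 10 were among the 11208 genes of the deposited table. RNA was measured in mouse NIH/3T3 cells, an established fibroblast line, in which a construct switched on by doxycycline had been integrated. It carried E2F1, a transcription factor that activates cell cycle genes (the E2F1 line), or no insert (the empty vector or EV line). All cells were starved for 48 h in 0.25% serum, so that every group, the 0 h groups included, had been starved. The E2F1 line was sampled at 0, 2, 6 and 12 h of 500 ng/ml doxycycline. The EV line was sampled at the same times of doxycycline and at 2, 6 and 12 h of 10% serum. Each of the 11 groups had 2 libraries, and the serum groups were compared with the EV 0 h libraries. Serum was given only to the EV line, without doxycycline, and E2F1 was induced only in the E2F1 line, in 0.25% serum. Where E2F1 induction is compared with serum, line, doxycycline and serum therefore cannot be told apart. Whether each line was a clone or a pool of clones, and whether replicates were separate cultures, is not given in the sources used here, so p-values measure the spread between these samples, which may be technical.

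Pocket proteins bind E2F transcription factors and hold their target genes repressed. In resting cells the pocket protein encoded by Rbl2 joins a repressor E2F, its DP partner and the MuvB core (Lin9, Lin37, Lin52, Lin54 and Rbbp4) in the DREAM complex, which silences both G1/S genes, through E2F sites, and G2/M genes, through CHR elements bound by Lin54. When cells return to the cycle, cyclin-dependent kinases phosphorylate the pocket proteins, DREAM comes apart, and the MuvB core is bound first by the Mybl2 product and then also by the Foxm1 product, which activate G2/M genes.

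Promoter sequences are shown first, because some of these genes are themselves known E2F targets. RefSeq (GRCm38.p6) gave a promoter for 7 of the 10 genes. The 250 bases before the start site are printed for Mybl2, Rbl1 and Rbbp4, which rose after E2F1 induction, and for Rbl2, which did not. Capitals mark E2F heptamers (TTNNCGN, with C or G at each N) and CHR hexamers (TTTGAA or TTCGAA), on either strand.
Mybl2, chr2:163054385-163054634, plus strand: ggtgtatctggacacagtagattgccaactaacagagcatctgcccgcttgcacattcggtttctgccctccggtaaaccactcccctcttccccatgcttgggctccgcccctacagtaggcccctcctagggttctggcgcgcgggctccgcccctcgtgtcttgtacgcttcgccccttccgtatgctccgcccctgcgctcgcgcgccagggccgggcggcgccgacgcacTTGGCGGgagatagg
Rbl1, chr2:157204535-157204784, minus strand: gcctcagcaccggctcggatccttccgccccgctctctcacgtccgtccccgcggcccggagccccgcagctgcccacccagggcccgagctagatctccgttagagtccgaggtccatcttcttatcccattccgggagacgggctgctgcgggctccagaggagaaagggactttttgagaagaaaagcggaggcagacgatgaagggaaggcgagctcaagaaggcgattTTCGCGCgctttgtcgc
Rbbp4, chr4:129335371-129335620, minus strand: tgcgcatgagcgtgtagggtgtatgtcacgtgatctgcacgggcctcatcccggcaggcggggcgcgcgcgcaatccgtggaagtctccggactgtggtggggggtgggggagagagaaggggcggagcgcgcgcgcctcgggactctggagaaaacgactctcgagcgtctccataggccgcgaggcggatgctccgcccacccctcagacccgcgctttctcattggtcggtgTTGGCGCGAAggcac
Rbl2, chr8:91069807-91070056, plus strand: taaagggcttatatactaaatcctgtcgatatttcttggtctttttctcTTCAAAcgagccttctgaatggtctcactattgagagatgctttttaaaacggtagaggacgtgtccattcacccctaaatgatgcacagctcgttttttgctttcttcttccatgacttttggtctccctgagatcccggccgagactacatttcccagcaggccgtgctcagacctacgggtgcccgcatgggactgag
The Mybl2 heptamer began 15 bases before the start site and the Rbl1 heptamer 17 bases before it. Rbbp4 had 2 overlapping matches, 15 and 12 bases before the start. Rbl2 had no E2F heptamer in this window and 1 CHR hexamer, on the opposite strand, 201 bases before the start. Of the promoters not printed, Lin52 had a heptamer 26 bases before its start and Lin37 had one 17 bases after it. The second of the Lin54 promoters had one 154 bases before its start, and the first had none. Lin37 had 1 CHR hexamer, 197 bases before its start, and the Lin54 promoters had 1 and 2. After E2F1 induction Lin37 was not called at 6 or 12 h, Lin52 was called only at 12 h, and Lin54 rose at both. Whether matches go with the response was not tested. In windows that also took in the 50 bases after the start, 17.8% of 32851 mouse promoters held an E2F heptamer and 19.2% a CHR hexamer. Start sites are those of RefSeq. For Mybl2, Lin37, Lin52 and the second Lin54 promoter they differ from the gene positions given below, which come from another annotation. A match describes letters and not binding.

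Some libraries and groups stood apart in ways that bear on these genes. Normalized counts summed to between 34014608 and 46057140 in a library, the lowest mean of any gene in the table was 99.6, and the depth in reads is unknown. All 9 fibroblast markers were in the table, and none of the 15 epithelial, immune and endothelial markers was. E2f1, the gene of the construct, had 1703 and 1637 normalized counts at 0 h in the E2F1 line, 1535 and 1755 at 2 h, 3806 and 3602 at 6 h and 2683 and 2845 at 12 h. It was thus higher at 6 h (log2 change 1.15, limma adjusted p = 9.61e-08) and 12 h (0.73, adjusted p = 1.65e-05) but not called at 2 h (-0.02, adjusted p = 0.946), and whether transcripts of the construct were counted under it is not given in the sources used here. The EV libraries at 0 h differed from each other in cycle genes: the summed level of the 24 G2/M genes described below was 31209 and 56729, against 53570 and 52055 in the E2F1 line at 0 h. Ddx3y, a Y-linked gene, had 580 and 521 at 0 h in the E2F1 line against 9 and 4 in the EV line, but 103 and 71 in the EV line at 2 h of doxycycline and 132 and 170 at 2 h of serum. Without the 2 EV libraries at 2 h of doxycycline, as many of the 10 genes were called in each of the other comparisons. The log2 changes of those comparisons do not use these libraries, so this fit could alter only the shared estimate of the spread. It cannot show what the Ddx3y values mean for any result. Calls that were lost without 1 of the EV 0 h libraries are given with their results. What lies behind the Ddx3y values at 2 h of doxycycline and of serum, and its part in the results, was not tested.

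Most of these genes were higher by 6 h of E2F1 induction. At 2 h none of the 10 passed the test (limma with Benjamini-Hochberg adjustment over all genes, threshold 0.05), where 1.86% of all genes did. At an unadjusted p under 0.05 Lin54 alone passed, with 15% of all genes. At 6 h 7 rose and 1, Rbl2, fell, where 28.8% of all genes were called higher and 22.9% lower. At 12 h 8 rose, where 31.8% of all genes were called higher and 29.7% lower. The median log2 change of the 10 genes was 0.98 at 6 h and 1.83 at 12 h, against -0.03 and -0.02 over all genes. The RNA came from bulk cultures, in which more cells that express a gene and more RNA per cell cannot be told apart.

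In serum, 4 of the 10 genes fell at 2 h and none rose, where 33.5% of all genes were called lower and 37.5% higher. At 6 h 3 fell and none rose, where 31% of all genes were called lower and 36.5% higher. The counts of falls at 2 and 6 h were thus near the shares of all genes. After quantile normalization Lin54 (0.57, adjusted p = 0.011) and Mybl2 (0.75, adjusted p = 0.0188) were called higher at 2 h, and Rbbp4 (-0.46) lower. Lin52 was then called higher at 6 h (0.38). With equal totals Lin37, Foxm1 and Rbbp4 were called lower at 2 h. Without EV 0 h replicate 2 the changes at 2 h were 0.88 for Mybl2 and 0.72 for Lin54, and 0.57 for Lin54 at 6 h. Without EV 0 h replicate 1 that of Foxm1 was -0.68 at 2 h and that of Mybl2 -0.79 at 6 h. At 12 h 6 rose and 3 fell, where 36% of all genes were called higher and 29.7% lower. In the EV line given doxycycline, none of the 10 passed at 2 h (7.35% of all genes called) or at 6 h (0.134% of all genes called). At an unadjusted p under 0.05, 1 of them (Lin54) and 23.3% of all genes passed at 2 h, and 0 of them and 5.9% of all genes at 6 h. At 12 h of doxycycline 3 fell, Foxm1, Mybl2 and Rbl1, where 3.42% of all genes were called lower. That share rested on single libraries, since the 383 genes called lower became 11 without EV 0 h replicate 2, 58 without EV 12 h replicate 1 and 615 without EV 0 h replicate 1. All 10 genes had their highest group mean in the E2F1 line at 12 h. These libraries overlapped those of the same line at 0 h for Rbl2 and Lin37, and at 6 h for Rb1.

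**Figure D1:**
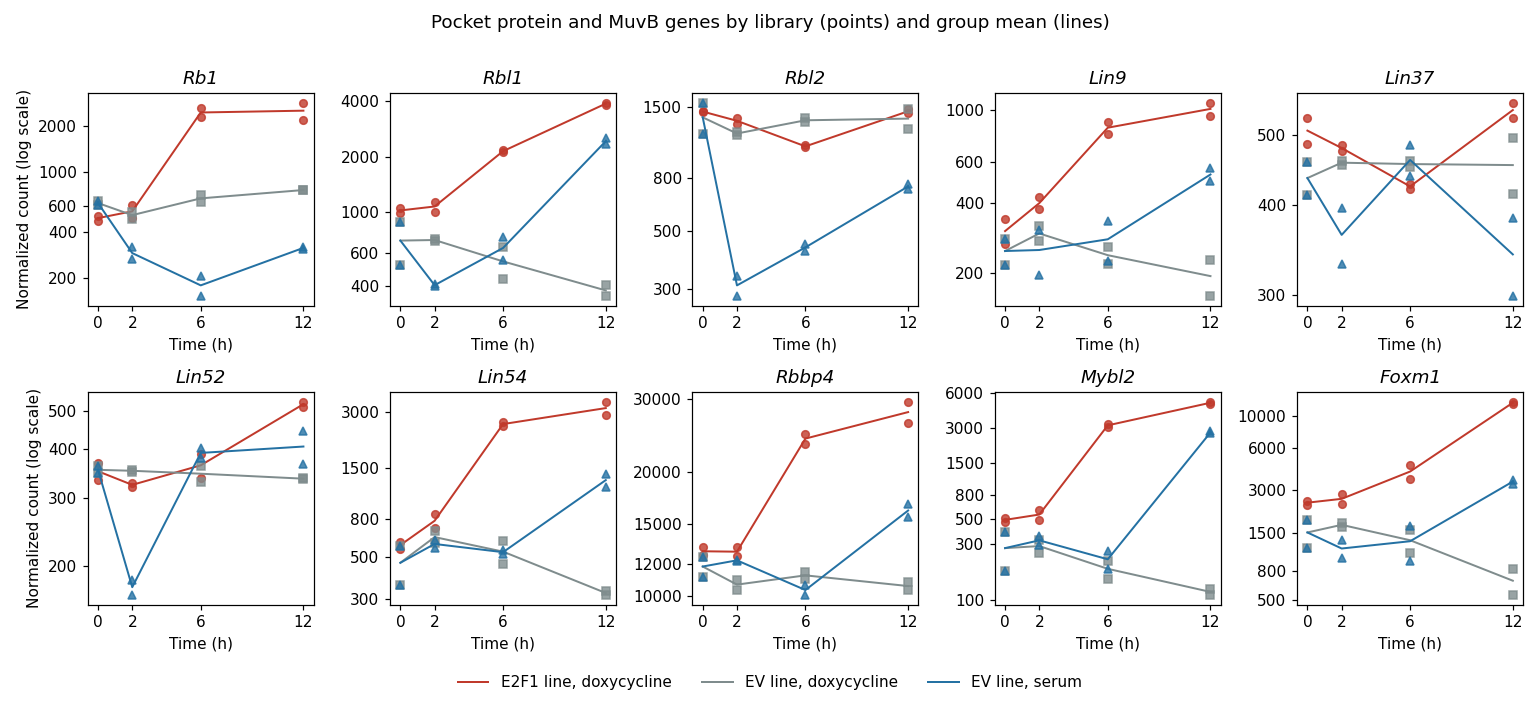
Normalized count (log scale, with its own range in each panel) against time in hours for the 10 genes. Points are libraries and lines join group means of the E2F1 line in doxycycline, the EV line in doxycycline and the EV line in serum, which share the EV 0 h points. Rb1 and Rbl2 drop in serum while Rb1 rises after E2F1 induction, and Mybl2 climbs in both.

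Among the pocket proteins, Rb1 moved in opposite directions under E2F1 and serum. Rb1 (ENSMUSG00000022105.6, chr14:73183673-73325822 in GRCm38) codes for the retinoblastoma protein, which mainly restrains activator E2Fs. In the E2F1 line it had 514 and 478 normalized counts at 0 h, 494 and 606 at 2 h, 2642 and 2296 at 6 h and 2867 and 2209 at 12 h. Both later time points lay above every other library of the series and overlapped each other. The rise was 4.96-fold at 6 h (log2 change 2.31, SE 0.16, adjusted p = 1.41e-09, n = 2 libraries per group in limma) and 5.07-fold at 12 h. In serum Rb1 had 642 and 605 at 0 h, 265 and 318 at 2 h, 152 and 205 at 6 h and 319 and 312 at 12 h. All 6 serum libraries lay below both starved ones, and the level at 6 h was 3.52-fold lower than at 0 h (adjusted p = 1.49e-08). From 6 to 12 h of serum it rose again, by 0.83 on the log2 scale (adjusted p = 0.000409). The E2F1 change exceeded the serum change by 4.12 on the log2 scale at 6 h (95% interval 3.65 to 4.60) and by 3.32 at 12 h (2.85 to 3.79). The EV line in doxycycline stayed between 490 and 764, and its changes did not pass the test.

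Rbl1 (ENSMUSG00000027641.13, chr2:157145893-157204534) codes for the pocket protein that pairs with E2F repressors mostly in cycling cells. In the E2F1 line it had 996 and 1049 at 0 h, 1006 and 1142 at 2 h, 2167 and 2115 at 6 h and 3825 and 3921 at 12 h. In serum it had 408 and 397 at 2 h, 549 and 732 at 6 h and 2522 and 2328 at 12 h, from 517 and 887 at 0 h. The 2 libraries at 12 h of serum lay above both at 6 h of E2F1 induction and below both at 12 h. The rise at 12 h was 3.79-fold after E2F1 induction and 3.57-fold in serum. The difference of these changes was 0.08 on the log2 scale (95% interval -0.51 to 0.67, adjusted p = 0.834). The rise had begun by 6 h after E2F1 induction (1.07, adjusted p = 0.000222) but was not detected at 6 h of serum (-0.10, adjusted p = 0.687), and the difference at 6 h passed the test (1.16, 95% interval 0.57 to 1.75, adjusted p = 0.00173). The fall at 2 h of serum (-0.75, adjusted p = 0.00249) was not called without EV 0 h replicate 2 (-0.36, adjusted p = 0.101).

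Rbl2 (ENSMUSG00000031666.15, chr8:91070057-91123844) codes for the pocket protein of DREAM in resting cells. It was lower within 2 h of serum, with 1556 and 1176 normalized counts at 0 h, 281 and 336 at 2 h, 445 and 419 at 6 h and 724 and 758 at 12 h. The fall was 4.39-fold at 2 h (log2 change -2.13, SE 0.12, adjusted p = 3.07e-11), 3.13-fold at 6 h and 1.82-fold at 12 h, so that each later serum group lay above the one before. In the E2F1 line it had 1440 and 1436 at 0 h, 1292 and 1358 at 2 h, 1066 and 1047 at 6 h and 1469 and 1414 at 12 h. It dipped at 6 h (-0.44, adjusted p = 0.00558) and at 12 h overlapped the starved level (0.00, 95% interval -0.25 to 0.26, adjusted p = 0.984). The dip did not pass as a difference from the EV line (-0.42, adjusted p = 0.0677). E2F1 and serum changes differed by 2.02 at 2 h (95% interval 1.65 to 2.38, adjusted p = 2.37e-08) and by 0.87 at 12 h (0.51 to 1.23, adjusted p = 0.000442).

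Exons of neighbours on the other strand overlap these genes, and strand use in counting is not given in the sources used here. Of the Rbl2 exon bases, 693 are shared with Aktip on the opposite strand and 892 with Gm45464, which the deposited table does not hold. Aktip had 1425 and 1296 at 0 h and 453 and 584 at 2 h of serum, and it also fell in the E2F1 line, from 1327 and 1190 at 0 h to 641 and 607 at 12 h, where Rbl2 did not. Rb1 shares 488 exon bases with Rcbtb2 and 408 with Lpar6, whose values are not given here. Rcbtb2 had 2196 and 2672 at 0 h and 2345 and 2092 at 6 h of serum, and 2121 and 2263 at 0 h and 2275 and 2417 at 6 h of E2F1 induction. Rbbp4 shares 796 with Gm26722, which the deposited table does not hold, and 782 with Sync, which had no more than 238 in any library. The part of these overlaps in the values was not tested.

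Per kilobase of annotated exon, the makeup of the pocket protein RNA differed between E2F1 induction and serum. The summed level of Rb1, Rbl1 and Rbl2 was 399 and 404 normalized counts per kb in the EV line at 0 h, 149 and 164 at 2 h of serum and 570 and 541 at 12 h of serum. In the E2F1 line it was 442 and 445 at 0 h, 942 and 873 at 6 h and 1310 and 1210 at 12 h. Rbl2 had the largest share in all 4 libraries at 0 h, with 51.6% and 38.5% in the EV line and 43.1% and 42.7% in the E2F1 line. At 12 h of serum Rbl1 made up 73.9% and 71.9%, with Rb1 at 9.31% and 9.59%. At 6 h of E2F1 induction Rb1 had the largest share, 46.6% and 43.7%, and at 12 h Rbl1 had 48.7% and 54.1% and Rb1 36.4% and 30.4%. These shares use the length of all annotated exons and were not tested.

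**Figure D2:**
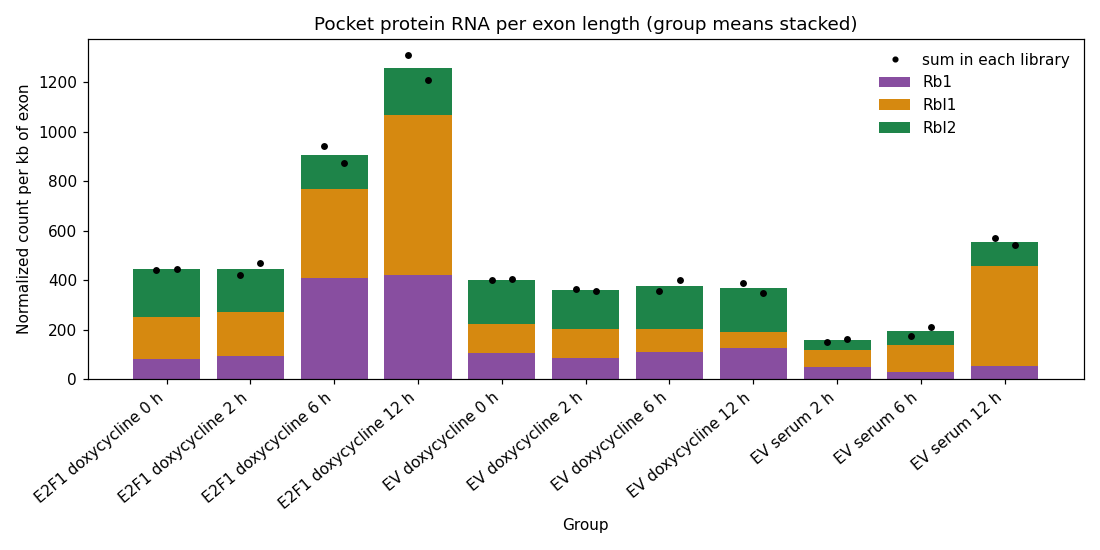
Normalized count per kb of exon for Rb1, Rbl1 and Rbl2, stacked as group means (bars), with the sum in each library as points, in the 11 groups. The sum is lowest at 2 h of serum (149 and 164) and highest at 12 h of E2F1 induction (1310 and 1210), and the Rb1 segment is tallest in the E2F1 line at 6 and 12 h.

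Of the MuvB core, Lin54 and Lin9 followed E2F1 induction most strongly. Lin54 (ENSMUSG00000035310.15, chr5:100441918-100500639), the subunit that binds CHR elements, had 605 and 556 normalized counts at 0 h in the E2F1 line, 715 and 850 at 2 h, 2642 and 2502 at 6 h and 3385 and 2877 at 12 h. In serum it had 616 and 561 at 2 h, 519 and 545 at 6 h and 1395 and 1187 at 12 h, from 357 and 577 at 0 h. Its 12 h serum libraries lay above all other EV libraries and below the E2F1 libraries at 6 and 12 h. The change at 12 h was 5.37-fold after E2F1 induction (log2 change 2.43, SE 0.18, adjusted p = 3.47e-09) and 2.83-fold in serum (1.5, adjusted p = 1.01e-06), and these differed by 0.92 (95% interval 0.39 to 1.46, adjusted p = 0.00603).

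Lin9 (ENSMUSG00000058729.13, chr1:180641150-180690694), a scaffold of the core, had 340 and 266 at 0 h in the E2F1 line, 422 and 376 at 2 h, 891 and 786 at 6 h and 945 and 1073 at 12 h. At 12 h of serum it had 496 and 562, above all other EV libraries, which ran from 160 to 334. Lin9 rose 3.34-fold at 12 h of E2F1 induction (adjusted p = 4.58e-06) and 2.13-fold at 12 h of serum (adjusted p = 0.000519). The 12 h difference between E2F1 and serum was 0.65 with a 95% interval from -0.05 to 1.34 (adjusted p = 0.117). At 6 h the change after E2F1 exceeded that in serum by 1.32 (0.63 to 2.02, adjusted p = 0.00234).

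Rbbp4 (ENSMUSG00000057236.10, chr4:129307100-129335370), a histone-binding subunit that other chromatin complexes also contain, started from high values. It had 13155 and 12559 at 0 h in the E2F1 line, 12509 and 13143 at 2 h, 24713 and 23384 at 6 h and 26214 and 29513 at 12 h. In serum it had 12172 and 12277 at 2 h, 10648 and 10081 at 6 h and 16712 and 15537 at 12 h, from 11165 and 12459. It rose 2.16-fold at 12 h of E2F1 induction (log2 change 1.11, SE 0.077, adjusted p = 1.49e-09) and 1.37-fold at 12 h of serum (0.45, adjusted p = 5.64e-05), a difference of 0.66 (95% interval 0.43 to 0.89, adjusted p = 7.49e-05). The fall at 6 h of serum (-0.19, adjusted p = 0.0399) was lost without EV 0 h replicate 2 (-0.11, adjusted p = 0.309), without serum 6 h replicate 2 (-0.15, adjusted p = 0.184), in a fit of the 2 groups alone and without the mean-variance trend. With libraries scaled to equal totals its change at 2 h of serum was -0.32 (adjusted p = 0.000664) in place of 0.05 (adjusted p = 0.561).

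Lin37 and Lin52 moved least of the core at 12 h of E2F1 induction. Lin37 (ENSMUSG00000036845.12, chr7:30555441-30559838), needed for repression by DREAM, stayed between 299 and 555 in all 22 libraries. Its group means spanned 1.60-fold, and 14.1% of all genes spanned less. It did not pass at 6 h (-0.26, adjusted p = 0.143) or 12 h of E2F1 induction (0.10, adjusted p = 0.581). At 12 h of serum it had 299 and 384 against 459 and 413 at 0 h (-0.36, adjusted p = 0.0342), a call that was lost without EV 0 h replicate 1 (-0.28, adjusted p = 0.182), without serum 12 h replicate 1 (-0.18, adjusted p = 0.358), after quantile normalization and in a fit of the 2 groups alone.

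Lin52 (ENSMUSG00000085793.2, chr12:84451422-84546145), whose phosphorylation by the kinase Dyrk1a lets MuvB bind the pocket protein, had 346 and 361 at 0 h in the EV line, 185 and 169 at 2 h of serum, 401 and 380 at 6 h and 445 and 366 at 12 h. The fall at 2 h was 1.99-fold (log2 change -1.0, SE 0.14, adjusted p = 4.19e-06). These 2 libraries were the lowest of the series for Lin52, and by 6 h both lay above the starved level, without passing the test (0.14, adjusted p = 0.375). In the E2F1 line it had 332 and 369 at 0 h, 320 and 327 at 2 h, 337 and 389 at 6 h and 513 and 528 at 12 h, so that only the last group stood apart above 0 h (0.57, adjusted p = 0.00174). Its 12 h changes in E2F1 and serum differed by 0.38 (95% interval -0.04 to 0.80, adjusted p = 0.121).

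Of the partners that turn MuvB into an activator, Mybl2 rose on both routes. Mybl2 (ENSMUSG00000017861.11, chr2:163054687-163084688), which codes for B-Myb, had 470 and 507 normalized counts at 0 h in the E2F1 line, 487 and 599 at 2 h, 3290 and 3080 at 6 h and 5088 and 4888 at 12 h. In serum it had 353 and 298 at 2 h, 185 and 262 at 6 h and 2821 and 2711 at 12 h, from 176 and 382 at 0 h. In the EV line in doxycycline it had 326 and 255 at 2 h, 152 and 218 at 6 h and 124 and 110 at 12 h. The E2F1 line thus reached at 6 h a level above that of serum at 12 h. The change at 12 h was 10.2-fold after E2F1 induction (log2 change 3.35, SE 0.26, adjusted p = 5.55e-09) and 10.6-fold in serum (3.41, adjusted p = 3.68e-09). The serum value was 2.85 without EV 0 h replicate 1 and 3.97 without EV 0 h replicate 2, and it passed the test in both fits. The 12 h changes differed by -0.06 with a 95% interval from -0.83 to 0.71 (adjusted p = 0.911), and the interval leaves room for a difference of either sign. At 6 h E2F1 and serum changes differed by 2.94 (2.17 to 3.71, adjusted p = 2.2e-06). Its group means spanned 42.3-fold, and 99.0% of all genes spanned less.

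Foxm1 (ENSMUSG00000001517.14, chr6:128362967-128376146), the forkhead activator of G2/M genes, rose late. It had 2529 and 2356 at 0 h in the E2F1 line, 2383 and 2818 at 2 h, 4506 and 3612 at 6 h and 12661 and 12256 at 12 h. In serum it had 1322 and 992 at 2 h, 945 and 1661 at 6 h and 3560 and 3332 at 12 h, from 1170 and 1836 at 0 h. The E2F1 12 h libraries stood far above all others, of which the highest had 4506. The change from 6 to 12 h in the E2F1 line was 3.09-fold (log2 change 1.63, adjusted p = 0.000114), while that of Mybl2 over the same step, 0.65, did not pass the test (adjusted p = 0.0607). Whether these 2 steps differ was not tested. At 12 h Foxm1 rose 5.10-fold after E2F1 induction (adjusted p = 2.66e-07) and 2.35-fold in serum (adjusted p = 0.000307), a difference of 1.12 (95% interval 0.38 to 1.86, adjusted p = 0.014) that was not called without EV 0 h replicate 2 (0.79, adjusted p = 0.0849). The rise at 6 h of E2F1 induction (0.72, adjusted p = 0.0217) was lost without E2F1 6 h replicate 1 (0.57, adjusted p = 0.158), without either E2F1 0 h replicate (adjusted p = 0.0572 and 0.0991) and after quantile normalization (adjusted p = 0.0738).

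**Figure D3:**
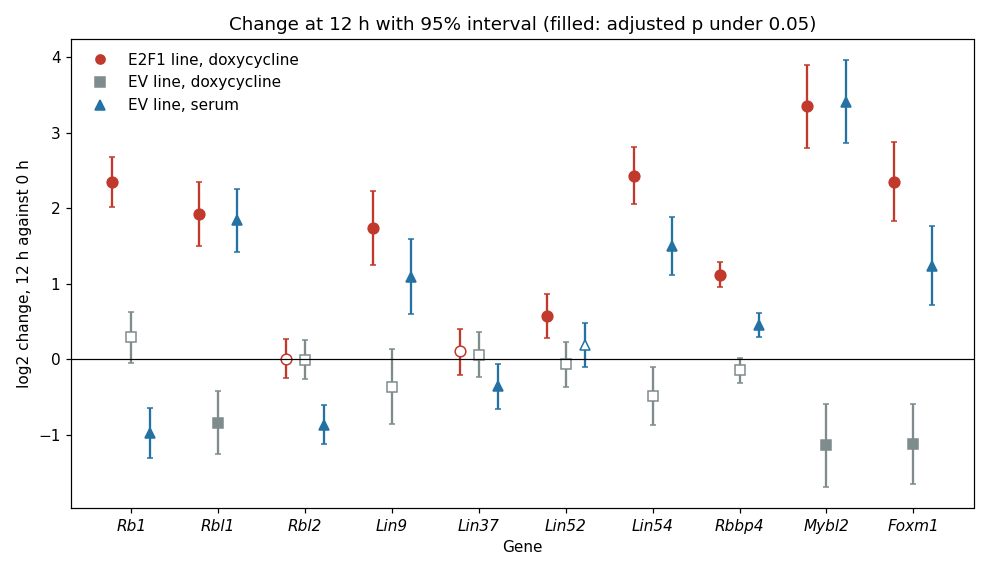
The log2 change at 12 h against 0 h (vertical axis) of the 10 genes in the E2F1 line with doxycycline, the EV line with doxycycline and the EV line with serum, with 95% intervals from the limma fit. Filled symbols passed the adjusted threshold of 0.05. Rb1 lies at 2.34 for E2F1 and -0.98 for serum, and the Mybl2 values of 3.35 and 3.41 lie side by side.

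In the EV line at 12 h of doxycycline Foxm1 had 542 and 827 (-1.13, adjusted p = 0.0144), Mybl2 124 and 110 (-1.14, adjusted p = 0.0168) and Rbl1 402 and 352 (-0.85, adjusted p = 0.0198), all below both 0 h libraries. The calls were lost when single libraries were left out. Without EV 0 h replicate 2 none of the 3 passed (Foxm1 -0.80, adjusted p = 0.352; Mybl2 -0.59, adjusted p = 0.425; Rbl1 -0.46, adjusted p = 0.469), nor did they without EV 12 h replicate 1 or in a fit of the 2 groups alone. The change after E2F1 induction exceeded the EV change in doxycycline for 6 of the 10 genes at 6 h (22.2% of all genes called higher) and for 8 at 12 h (27.3% of all genes called higher). At 2 h none of the 10 passed in limma (0.143% of all genes called), and 0 had an unadjusted p under 0.05 (7.78% of all genes). The 12 h count stayed at 8 with any 1 library left out.

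Set against serum, the change after E2F1 induction was higher for 4 genes at 2 h (Rb1, Rbl1, Rbl2 and Lin52, where 26.6% of all genes were called higher), 8 at 6 h (30.3%) and 5 at 12 h (Rb1, Rbl2, Lin54, Rbbp4 and Foxm1, where 25% were called higher and 23.8% lower). No gene of the 10 was called lower in any of the 3 as reported. After quantile normalization Lin37 was called lower at 6 h (-0.53, adjusted p = 0.0277). Without EV 0 h replicate 2 the Mybl2 difference at 2 h was -0.73 (-0.18 as reported). With equal totals Lin9, Lin37, Foxm1 and Rbbp4 were called higher at 2 h as well. At 2 h the Rbl1 difference was not called without EV 0 h replicate 2 (0.43, adjusted p = 0.146), E2F1 0 h replicate 1 (0.78, adjusted p = 0.053) or E2F1 2 h replicate 2 (0.73, adjusted p = 0.0665), or after quantile normalization, and the Lin52 difference was not called after quantile normalization (0.47, adjusted p = 0.0541). At 6 h the Foxm1 difference (0.95 as reported) was not called in 6 of the alternatives. Among them were the fits without serum 6 h replicate 1 (0.54, adjusted p = 0.184), EV 0 h replicate 2 (0.63, adjusted p = 0.155), E2F1 6 h replicate 1 (0.79, adjusted p = 0.104) and E2F1 0 h replicate 2 (0.90, adjusted p = 0.072). The serum and EV doxycycline changes share the EV 0 h libraries. The comparison with serum did not subtract the EV change in doxycycline. At 2 h Rb1, Rbl1, Rbl2 and Lin52 were called lower in serum, and none of them was called in the E2F1 line. The starting levels of the lines differed for 1 gene, Mybl2, with 470 and 507 in the E2F1 line and 176 and 382 in the EV line at 0 h (0.91, adjusted p = 0.0252), where 8.86% of all genes were called higher. That call was lost without EV 0 h replicate 1 (0.35, adjusted p = 0.373), without either E2F1 0 h library and in a fit of the 2 groups alone. Without EV 0 h replicate 2, Rbl1, Lin54 and Foxm1 were called as well. Between 6 and 12 h, 5 genes rose in the E2F1 line (Rbl1, Rbl2, Lin52, Foxm1 and Rbbp4, where 15.1% of all genes were called higher). In serum 8 rose and Lin37 fell over the same interval (19.3% of all genes called higher and 20.6% lower). In the E2F1 line Rbbp4 was not called without E2F1 12 h replicate 2 (0.12, adjusted p = 0.333) or either 6 h library (0.25 and 0.17, adjusted p = 0.0689 and 0.209), in a fit of the 2 groups alone or without the mean-variance trend. Rbl2 was not called without E2F1 12 h replicate 1 (0.42, adjusted p = 0.055), nor Lin52 without E2F1 6 h replicate 1 (0.42, adjusted p = 0.0847). In serum Lin37 was not called without serum 12 h replicate 1 (-0.26, adjusted p = 0.239) or serum 6 h replicate 1 (-0.37, adjusted p = 0.109), with equal totals or in a fit of the 2 groups alone, and Lin9 was not called without serum 6 h replicate 1 (0.66, adjusted p = 0.0634).

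The genes that DREAM and MuvB are known to act on were counted in lists from general knowledge. Like the 10 genes, the lists were chosen with earlier results of these data known. All 20 G1/S genes with E2F sites rose at 6 h and 12 h of E2F1 induction, with a median log2 change of 1.38 and 1.58, where 28.8% and 31.8% of all genes were called higher. All 20 also rose at 12 h of serum, with a median of 2.29, where 36% of all genes were called higher. Rrm2, a subunit of ribonucleotide reductase, had 1617 and 1341 at 0 h and 18684 and 18266 at 12 h of E2F1 induction, and 785 and 1406 at 0 h and 8968 and 8394 at 12 h of serum. Tk1, thymidine kinase, rose 6.46-fold in the E2F1 line, and Cdc6, which loads the replicative helicase, rose 10.0-fold at 12 h of serum. At 6 h of serum 6 of the 20 were higher and 4 lower, no larger a share than the 36.5% and 31% of all genes, and without EV 0 h replicate 2 these were 11 and 1. In the EV line at 12 h of doxycycline 19 fell, led by Cdc6 and Mcm5, where 3.42% of all genes were called lower. Without EV 0 h replicate 2 only 3 of the 20 were called lower, without EV 12 h replicate 1 7, and in a fit of the 2 groups alone 4. The changes at 6 h were higher after E2F1 than in serum in 17 of the 20, with a median difference of 1.36 (30.3% of all genes called higher). At 12 h 1 was higher and 9 were lower after E2F1, with a median difference of -0.84 (25% of all genes called higher and 23.8% lower). The number lower was 16 without EV 0 h replicate 2. At 0 h the E2F1 line already had higher levels for 12 of the 20, with a median of 0.60 (8.86% of all genes called higher), and 3 without EV 0 h replicate 1 or 4 without E2F1 0 h replicate 1. The summed level of the list at 0 h was 53071 and 46855 in the E2F1 line and 27076 and 40358 in the EV line. At 12 h it was 157217 and 166470 after E2F1 induction and 170837 and 151855 in serum, so that the libraries of the 2 groups overlapped at 12 h while the starting levels did not.

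All 24 G2/M genes with CHR elements rose at 12 h of E2F1 induction, with a median log2 change of 2.17, where 31.8% of all genes were called higher. At 6 h 6 rose, a share below the 28.8% of all genes, and 0 were called without E2F1 6 h replicate 1 or E2F1 0 h replicate 2 and 2 without E2F1 0 h replicate 1. In a fit of the 2 groups alone 17 were called. At 12 h of serum 8 rose and 1, Ccnb2, fell, with a median of 0.12, where 36% of all genes were called higher and 29.7% lower. These were 4 and 5 without EV 0 h replicate 1 and 11 and 0 without EV 0 h replicate 2. Nusap1, a spindle protein, had 1227 and 1355 at 0 h and 9833 and 10523 at 12 h of E2F1 induction. Aurkb, a mitotic kinase, had 1220 and 1071 at 0 h and 8574 and 8949 at 12 h in the E2F1 line, and 649 and 1242 at 0 h and 2579 and 2248 at 12 h of serum. Cdk1, the mitotic kinase partner of cyclin B, rose 2.68-fold in serum. Ccnb2, a mitotic cyclin, had 318 and 534 at 0 h and 193 and 224 at 12 h of serum (-0.98, adjusted p = 0.017), a call lost without EV 0 h replicate 2 (-0.61, adjusted p = 0.194) or serum 12 h replicate 1 (-0.88, adjusted p = 0.0896). The change after E2F1 exceeded the serum change at 12 h in 21 of the 24, with a median difference of 1.78 (25% of all genes called higher), and at 6 h in 12 of the 24, with a median of 0.92 (30.3% of all genes). The 6 h count was 3 without EV 0 h replicate 2 or serum 6 h replicate 1, and 19 without serum 6 h replicate 2. No test compared the G2/M list with the G1/S list. In the EV line, 20 of the 24 were called lower at 12 h of doxycycline, with the largest falls in Ttk and Ccna2, where 3.42% of all genes were called lower. None of the 24 was called without EV 0 h replicate 2 or without EV 12 h replicate 1, and 1 was called in a fit of the 2 groups alone.

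**Figure D4:**
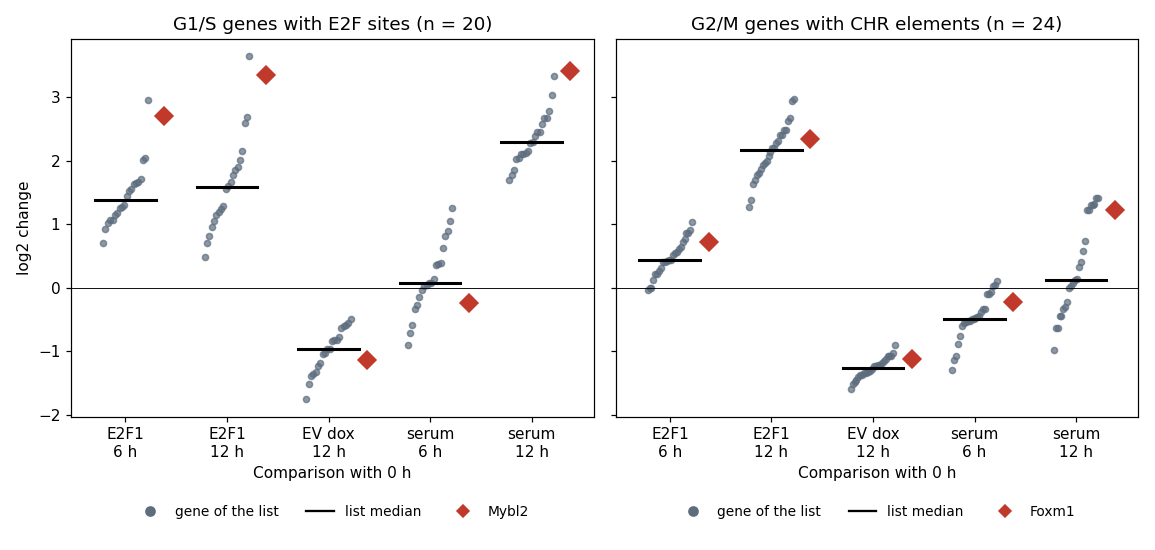
The log2 change against 0 h (vertical axis) of each gene of the G1/S list (left, n = 20) and the G2/M list (right, n = 24) in 5 comparisons. Dots are genes sorted by value, bars are list medians, and diamonds are Mybl2 (left) and Foxm1 (right). The G2/M median is 2.17 at 12 h of E2F1 induction and 0.12 at 12 h of serum, while the G1/S medians are 1.58 and 2.29.

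Partners and regulators of the complexes changed too. Among 7 E2F and DP genes, 5 rose at 6 h and 4 at 12 h of E2F1 induction (28.8% and 31.8% of all genes called higher). Both counts include E2f1, the gene of the construct. The largest rise at 12 h was that of E2f2, which had 83 and 109 at 0 h and 1139 and 989 at 12 h. Tfdp1, the main DP partner, rose 2.74-fold. E2f4, the repressor E2F of DREAM, named after its values were seen, was not called at 12 h of E2F1 induction (-0.17, adjusted p = 0.179) and was higher at 2 h of serum (0.43, adjusted p = 0.00177). In serum at 12 h 4 of the 7 rose, with E2f2 and E2f3 first, and Tfdp2 fell (36% of all genes called higher and 29.7% lower). The Tfdp2 call was lost without EV 0 h replicate 1 (-0.29, adjusted p = 0.0551) or serum 12 h replicate 2 (-0.26, adjusted p = 0.076). Of the relatives Mybl1 and Rbbp7, both rose at 12 h on both routes. Mybl1, the A-Myb gene, had 344 and 346 at 0 h and 3244 and 2573 at 12 h of E2F1 induction, and 229 and 389 at 0 h and 638 and 595 at 12 h of serum. Its change after E2F1 exceeded that in serum by 2.02 (adjusted p = 3.06e-05). Mybl1 and E2f2 fell in the EV line at 12 h of doxycycline, but neither was called without EV 0 h replicate 2 (-0.99, adjusted p = 0.0823, and -1.54, adjusted p = 0.384) and E2f2 was not called without EV 12 h replicate 1 (-0.93, adjusted p = 0.392).

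Of 16 cyclins, kinases and inhibitors that act on pocket proteins or MuvB, 12 rose and 3 fell at 12 h of E2F1 induction (31.8% of all genes called higher and 29.7% lower), and 10 rose and 3 fell at 12 h of serum (36% and 29.7%). The E-type cyclins Ccne1 and Ccne2, which phosphorylate pocket proteins with Cdk2, rose 16.6-fold and 16.0-fold after E2F1 and 8.86-fold and 6.99-fold in serum. Ccnd2, a D-type cyclin, fell 1.98-fold in the E2F1 line, and Dyrk1b, a relative of the Lin52 kinase gene, fell 2.54-fold there and 5.41-fold in serum. Cdkn1b, an inhibitor of cyclin-dependent kinases, had 5312 and 5016 at 0 h and 2629 and 2614 at 12 h of serum (-0.98, adjusted p = 1.08e-07), but 4616 and 5098 at 0 h and 10621 and 10249 at 12 h of E2F1 induction (1.10, adjusted p = 2.75e-08). Dyrk1a, named after its values were seen, rose at 12 h of E2F1 induction (0.98, adjusted p = 1.7e-08) and at 2 h of serum (0.83, adjusted p = 5.48e-08) but was not called at 12 h of serum (0.00, adjusted p = 0.978). Plk1 and Ccne1 fell in the EV line at 12 h of doxycycline, but neither was called without EV 0 h replicate 2 (-1.27, adjusted p = 0.106, and -0.55, adjusted p = 0.514) or without EV 12 h replicate 1 (-1.21, adjusted p = 0.0804, and -0.66, adjusted p = 0.31).

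Of 9 corepressor genes, 6 rose and 3 fell at 12 h of E2F1 induction, where 31.8% of all genes were called higher and 29.7% lower. At 12 h of serum 5 rose and 2 fell, where the shares were 36% and 29.7%, and after quantile normalization 3 rose and 3 fell. Suv39h1, a histone methyltransferase recruited by the retinoblastoma protein, rose 2.71-fold and 2.21-fold. Sin3a rose 2.03-fold after E2F1, and Hdac2 rose 1.32-fold in serum. Kdm5a, a histone demethylase first found as a partner of the retinoblastoma protein, and Smarca2, a remodelling ATPase, fell on both routes, by 0.64 and 0.43 on the log2 scale after E2F1 and by 0.65 and 1.07 in serum.

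The ordering of group means differed between the genes. Rb1 and Rbbp4 were lowest at 6 h of serum, Lin37 at 12 h of serum, and Rbl2 and Lin52 at 2 h of serum. Rbl1, Lin9, Lin54, Mybl2 and Foxm1 were lowest in the EV line at 12 h of doxycycline. For Rbbp4, Lin37, Rbl1 and Lin9 the libraries of the lowest group overlapped those of the next. For Rbbp4 the next group was the EV line at 12 h of doxycycline, and for Rbl1 it was 2 h of serum. For Mybl2 and Foxm1 the 3 highest groups were E2F1 12 h, E2F1 6 h and serum 12 h, each apart from the next. For Rbl2 the 6 highest groups followed each other with overlapping libraries. Across the 11 group means, Lin9 and Lin54 had a Pearson r of 0.99 with each other, and Lin37 had -0.05 with Mybl2, given as descriptions over groups that share lines and starting libraries.

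The genes with the most similar profile over the 11 group means, by Pearson r, were in part known cycle genes. For Foxm1 they were Ccna2 (0.996), Espl1 (0.994) and Sgo1 (0.993), which code for cyclin A, separase and shugoshin. For Mybl2 they were Dnmt1 (0.992), Rfc5 (0.991) and Clspn (0.990), and for Rbl1 Suv39h1 (0.997), Gmnn (0.995) and Fignl1 (0.992). Lin9 was closest to Ercc6l (0.992), Nfatc2ip (0.991) and Lin54 (0.990), and Lin54 to Lin9, C2cd2 (0.988) and Rfwd3 (0.987). Rb1 was closest to Map4k2 (0.985), Agap1 (0.985) and Phc1 (0.981), a Polycomb gene. Rbl2 was closest to Ift74 (0.990), Gpsm2 (0.987) and Adamts5 (0.983), and Rbbp4 to Meaf6 (0.988), Sclt1 (0.988) and Naa40 (0.986). Lin52 was closest to Pank2 (0.980), Klhl5 (0.959) and Tdrkh (0.958), and Lin37 to Ttc26 (0.960), Mtmr14 (0.946) and Heatr6 (0.940).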

How the data were processed

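Polyadenylated RNA of 22 libraries was sequenced as paired 150-base reads, per the labels' protocols. The submitters' processing notes name mm10, FastQC, Trimmomatic, HISAT2, featureCounts and DESeq2, with no versions or roles. The annotation, the use of strand and the gene filter are not given in the sources used here. The main table holds normalized counts that the authors rounded to whole numbers, treated here as a score and not as raw counts. Further tables hold a log2 fold change and an adjusted p-value per gene as the authors deposited them, only for genes with an absolute log2 change of 2 or more. The authors' deposited table for 12 h of E2F1 induction lists Rb1 at 2.35, Lin54 at 2.44, Mybl2 at 3.36 and Foxm1 at 2.36, that for 12 h of serum lists Mybl2 at 3.43, and that for 2 h of serum lists Rbl2 at -2.13. Their serum 0 h group was taken as the EV 0 h libraries.

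Groups and replicate numbers came from the labels. The test was limma (version 3.58.1, R 4.3.3) on log2(value + 1), with a mean for each of 11 groups, 11 residual degrees of freedom, empirical Bayes with a mean-variance trend and Benjamini-Hochberg adjustment over 11208 genes (two-sided, threshold 0.05). A filter of at least 10 in 2 libraries removed no gene. Fold changes are on the log2(value + 1) scale. On data simulated for the 6 h E2F1 comparison, 83 of 100 genes with an absolute log2 change of 1 were called in the right direction. With a change of 2 these were 100 of 100, and 6 unchanged genes were called. The simulated noise was independent between genes, and far fewer genes changed than were called in the data. The simulation therefore does not cover deviations that many genes of a library share. The members and lists were chosen with earlier results of these data known. From each list, the 2 largest rises and falls past the threshold in the 12 h comparisons with 0 h were named, if the higher mean was at least 50, and for each member the 3 most similar genes, without clone names. E2f4, Dyrk1a, Ddx3y and overlapping neighbours were named outside this rule, after their values were seen. Positions and exon lengths are from GRCm38 with GENCODE M21, and 10977 gene identifiers matched with the same version. Alternatives were a pseudocount of 8, no filter, a mean of at least 500, equal totals, quantile normalization, no trend, only the groups compared, the replicate number as a block, leaving out the EV 2 h doxycycline libraries and leaving out each library. Tables and figures were made with Python 3.11.15, pandas 2.3.3, numpy 2.4.6 and matplotlib 3.10.9.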

Additional observations from a re-analysis of the deposited data

Results flagged for a closer look

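The change in doxycycline differed between the E2F1 and EV lines for 6 of the 10 genes at 6 h and 8 at 12 h. The difference itself was tested (limma, adjusted over all genes), and 22.2% and 27.3% of all genes were called higher. At 6 h the E2F1 change exceeded the EV change on the log2 scale by 3.21 for Mybl2, 2.21 for Rb1, 1.92 for Lin54, 1.53 for Lin9, 1.42 for Rbl1 and 0.97 for Rbbp4. At 12 h it exceeded it by 4.49 for Mybl2, 3.48 for Foxm1, 2.92 for Lin54, 2.77 for Rbl1, 2.11 for Lin9, 2.06 for Rb1, 1.27 for Rbbp4 and 0.65 for Lin52. For Mybl2, Foxm1 and Rbl1 the 12 h difference includes a fall in the EV line, of 1.14, 1.13 and 0.85, that was not called without EV 0 h replicate 2.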

How the results depend on the processing

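Of 180 changes of single genes (10 genes in 18 comparisons), 81 were called. Over 2516 values under the alternatives, 53 lost a call, 42 gained one, 4 reversed, and 112 changed sign without a call in either fit (absolute log2 change at most 0.55). Only values of the 81 called changes could lose a call. The fit without a filter could not differ from the main fit, since the filter removed no gene. The reversals were those of Rbbp4 at 2 h of serum, -0.32 with equal totals and -0.46 after quantile normalization (0.05 as reported), and in the difference between E2F1 and serum at 2 h, 0.32 and 0.47 (-0.06 as reported). Equal totals moved the median change of all genes at 2 h of serum from 0.03 to -0.34 and at 6 h of serum from 0.03 to -0.18.

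With equal totals, 7 genes were called at 2 h of serum (4 as reported), 8 in the difference between E2F1 and serum at 2 h (4) and 3 between the lines at 0 h (1). Quantile normalization gave 7 at 2 h of serum and 2 between the lines at 0 h. With only the groups compared, 0 were called in the EV line at 12 h of doxycycline (3) and 0 between the lines at 0 h. Leaving out 1 library each gave 0 to 1 in the EV line at 2 h of doxycycline (0), 0 to 4 at 12 h (3), 3 to 5 at 6 h of serum (3), 0 to 4 between the lines at 0 h (1) and 3 to 4 from 6 to 12 h of E2F1 induction (5). The cause was not tested. A lone library was assumed to vary like those of the other groups. A mean of at least 500 left Lin9, Lin37 and Lin52 untested.

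Over all genes, equal totals changed the calls at 6 h of E2F1 induction from 3230 higher and 2569 lower to 2683 and 3781 (quantile normalization: 2657 and 3820), at 2 h of serum from 4200 and 3752 to 2611 and 5907, and at 6 h of serum from 4093 and 3470 to 2914 and 4772. For the difference between E2F1 and EV at 6 h they changed from 2493 and 1373 to 2101 and 2251 (quantile: 2068 and 2583), at 12 h by quantile normalization from 3059 and 2606 to 2659 and 3457, and for that between E2F1 and serum at 2 h from 2977 and 3382 to 4970 and 1966. Between the lines at 0 h they changed from 993 and 691 to 1345 and 524, and from 6 to 12 h of E2F1 induction from 1688 and 2265 to 2130 and 1771, and of serum from 2164 and 2308 to 3184 and 1392.

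In the EV line at 12 h of doxycycline the 84 genes higher and 383 lower became 21 and 56 with only the groups compared, 56 and 239 without the mean-variance trend, and 15 and 11, 17 and 58 or 188 and 615 without single libraries. With only the groups compared, calls became 295 and 301 at 2 h of E2F1 induction (from 97 and 111), 243 and 157 in the EV line at 2 h of doxycycline (from 552 and 272) and 385 and 267 between the lines at 0 h. Counts of list genes under these alternatives were added after seeing the data.

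Replicate numbers were not taken to pair the samples. Over 55 pairs of groups, deviations of same-numbered libraries correlated from -0.277 to 0.455 (median 0.0314), with 18 pairs over 0.1 and 6 under -0.1. Correlations were 0.142 to 0.357 among 0, 6 and 12 h of the E2F1 line and 0.303 to 0.455 among those of the EV line in doxycycline, while 2 h of the E2F1 line had -0.148 to -0.277 with its other groups. With the replicate block, 3 genes were called between the lines at 0 h (1 without it), and Foxm1 passed in the difference between E2F1 and EV at 6 h (adjusted p = 0.0466). A block with the 2 h E2F1 numbers exchanged, chosen after seeing the data, called 0 of the 10 genes there, and 126 genes higher and 143 lower in all, against 97 and 111 without a block. With 2 libraries a group, spread between replicates and not depth was what these tests measured.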
